A study of Mus musculus with 8 samples.

Results

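Genes of the retinal vessels were examined in the neural retina of mice without peroxisomal multifunctional protein 2 (MFP2). The set held 43 genes chosen by symbol, with earlier results of these data known, of 43472 symbols listed in the data. Of these, 26 mark endothelial cells, which line the vessels, or encode their ligands, 7 belong to the endothelial barrier and 10 mark mural cells, which are the pericytes and smooth muscle cells around the vessels. After a filter on low counts, 28 of the 43 genes were tested for a difference between genotypes, being 16 endothelial, 6 barrier and 6 mural genes. The other 15 genes had too few reads and are described by their counts.

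The inner retina is fed by layers of vessels whose endothelial cells are joined by tight junctions and form the inner blood-retinal barrier. Vascular endothelial growth factor A (VEGFA), made by glia and neurons, acts on endothelial cells through the signalling receptor VEGFR2, encoded by Kdr, while VEGFR1, encoded by Flt1, binds the same ligand and limits its action. Endothelial cells attract pericytes with platelet-derived growth factor B, which binds the receptor encoded by Pdgfrb, and Norrin from Müller glia acts on the endothelium to build and keep the barrier.

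RNA was sequenced from 8 C57BL/6J mice at 3 weeks of age, with both neural retinas of a mouse in each library. The control group had 4 mice, of which replicates 1, 3 and 4 were Mfp2+/+ and replicate 2 was Mfp2+/-. The other 4 mice were Mfp2-/-, born from heterozygous parents and lacking the gene in all tissues. The QuantSeq kit reads the 3′ end of each transcript, so that levels can be compared between genes without a correction for length, and values are given as counts scaled to library size with TMM factors (CPM).

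The control libraries held 2340974 to 3226187 counts in genes and the Mfp2-/- libraries 1895485 to 2826553. Hsd17b4, the gene of MFP2 (chromosome 18, 50128201 to 50196269 of GRCm38), had 20 to 78 counts in each control library and 0 or 1 in each Mfp2-/- library. Where these reads lie relative to the deleted part was not analysed here. Mfp2-/- replicates 2 and 3 stood apart, with 10.8% and 15.7% of reads outside annotated genes against 22.6% to 29.9% in the other 6 libraries. Called vascular genes are therefore also given without these 2 libraries.

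Among the vascular genes, the VEGF receptor gene Kdr and the endothelial glycoprotein gene Vwf were upregulated in Mfp2-/- retinas, at about 2-fold and 2.8-fold the control level. The other 26 tested genes, with most markers of endothelial cells, the barrier genes and the pericyte genes, did not pass the test. A gene was called at a Benjamini-Hochberg adjusted p under 0.05 in edgeR's quasi-likelihood test over 12516 genes. By this rule 2 of the 28 tested vascular genes were called, which is 7.14%, where 27.0% of all genes tested were called. Of the 2, Vwf passed the filter on low counts through the Mfp2-/- libraries alone. Upregulated genes were 13.8% of all genes tested and downregulated genes 13.2%. This split of 1728 upregulated and 1649 downregulated genes depended on the scaling and became 2369 and 1322 with upper-quartile factors and 2423 and 1291 with total counts alone.

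No vascular gene was downregulated in edgeR's test, where 1 was lower at an unadjusted p under 0.05. In both directions together 6 of the 28 had an unadjusted p under 0.05, beside 39.9% of all genes tested. DESeq2 and limma-voom also called 0 lower, with 0 and 1 lower at an unadjusted p under 0.05. Of the 28 genes, 21 had a fitted level above control and 7 below, beside 6229 above and 6287 below among all genes tested. The median log2 fold change of the 28 was 0.26, where the median of all genes was -0.0039. Upper-quartile factors and total counts each moved the median of all genes by 0.12 and that of the vascular genes to 0.38 and 0.39 (22 of 28 higher in both). Without Mfp2-/- replicates 2 and 3 the vascular median fell to 0.08, with 18 of 33 tested vascular genes higher. Without Mfp2-/- replicate 2 alone it was 0.10. The groups of 4 libraries did not overlap in 4 of the 28 genes (Kdr, Vwf, Plvap and Pdgfrb), all higher in Mfp2-/-. Of all genes tested, 15.1% were of this kind. Vwf was among the tested genes only through its Mfp2-/- libraries.

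The vascular genes were mostly of low abundance. Their median level was 9.59 CPM against 27.4 CPM for all genes tested, and 21 of the 28 lay under 20 CPM in control retinas. Their median standard error was 0.28 on the log2 scale, against 0.22 for all genes. In 15 of the 28 genes the 95% interval of the change stayed within 2-fold in either direction. In 11 of the 26 genes that were not called, the interval reached 2-fold or more, so that such a change is not excluded for them. In bulk tissue, fewer cells of a type and less RNA per cell cannot be told apart.

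**Figure D1:**
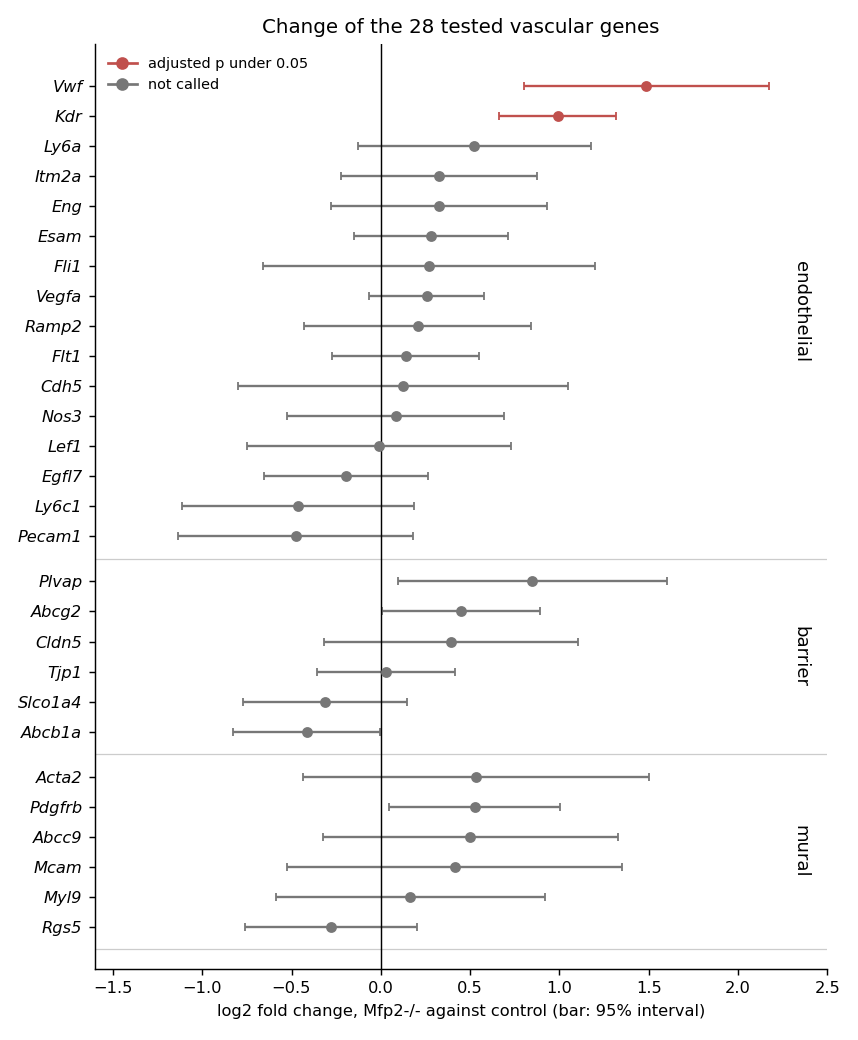
Log2 fold change of the 28 tested vascular genes in Mfp2-/- against control retinas (points) with the 95% interval of edgeR's fit (bars), grouped into endothelial, barrier and mural genes. The intervals of Vwf and Kdr, in red, lie furthest above 0, and those of most other genes cross 0.

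Kdr was the most abundant of the endothelial genes. The gene (chromosome 5, 75932827 to 75978458 of GRCm38, minus strand) was at 132, 156, 182 and 164 CPM in control replicates 1 to 4. In Mfp2-/- replicates 1 to 4 it was at 281, 367, 281 and 332 CPM. Every Mfp2-/- retina thus lay above every control. The mean rose from 158 ± 20.8 CPM to 315 ± 42.1 CPM (SD, n = 4 each). The fitted change was 1.99-fold (95% interval 1.58 to 2.49), or 0.99 on the log2 scale (standard error 0.15), with an adjusted p of 0.000732. Kdr was called in all 21 alternative fits, with log2 fold changes of 0.91 to 1.15 and adjusted p of 6.2e-08 to 0.00496, and at 0.95 without Mfp2-/- replicates 2 and 3.

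Flt1 (chromosome 5, 147561604 to 147726011, minus strand) encodes the decoy receptor for the same ligand. It was at 113, 86.0, 101 and 108 CPM in control and at 137, 77.7, 133 and 101 CPM in Mfp2-/- replicates 1 to 4. The groups overlapped, and Mfp2-/- replicate 2 was the lowest of all 8 libraries. The log2 fold change was 0.14 (95% interval -0.27 to 0.55, adjusted p = 0.612), an interval that leaves out a 2-fold change. The ligand gene Vegfa (chromosome 17, 46016993 to 46032369, minus strand) was at 83.3, 113, 106 and 95.4 CPM in control and at 141, 105, 120 and 110 CPM in Mfp2-/- replicates 1 to 4. These groups overlapped as well, with a log2 fold change of 0.26 (95% interval -0.07 to 0.58, adjusted p = 0.215).

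Since Kdr and Flt1 encode receptors of 1 ligand and lie on the same chromosome, the sequence around the start of each gene is shown. RefSeq (GRCm38.p6) gave windows of 250 bases before and 50 bases after the start for 28 of the 43 vascular genes and for 27025 genes in all. These 28 are not the same as the 28 tested genes, and Vwf had no window. The windows of Kdr (chr5:75978406-75978705, minus strand) and Flt1 (chr5:147725962-147726261, minus strand) are written 5′ to 3′ along the gene, with capitals for GGGCGG, the GC box, read here on the other strand as CCGCCC.
Kdr: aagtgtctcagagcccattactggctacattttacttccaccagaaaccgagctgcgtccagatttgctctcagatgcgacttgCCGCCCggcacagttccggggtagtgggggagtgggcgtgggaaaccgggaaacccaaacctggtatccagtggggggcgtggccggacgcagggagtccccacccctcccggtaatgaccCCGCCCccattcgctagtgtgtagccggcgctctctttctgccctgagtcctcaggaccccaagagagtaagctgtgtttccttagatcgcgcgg
Flt1: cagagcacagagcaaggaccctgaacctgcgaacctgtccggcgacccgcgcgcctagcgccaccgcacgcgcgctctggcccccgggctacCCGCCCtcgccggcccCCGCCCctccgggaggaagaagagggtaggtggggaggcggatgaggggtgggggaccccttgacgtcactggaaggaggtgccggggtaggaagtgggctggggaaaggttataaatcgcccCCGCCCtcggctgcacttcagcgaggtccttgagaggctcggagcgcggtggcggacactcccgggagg
The Kdr window held 2 GC boxes, starting 166 and 45 bases before the start, and no TATAAA. The Flt1 window held 3, at 158, 142 and 19 bases before the start, and also TATAAA at 31 bases before it. The base composition was 60.7% G and C in the Kdr and 70.7% in the Flt1 window. On either strand, GGGCGG was found in 18 of the 28 vascular genes with a window (64.3%) and in 38.2% of all genes, and TATAAA in 17.9% and 15.7%. The windows of the vascular genes had a median of 59.7% G and C, against 52.7% over all windows. CAGGAAG, a motif bound by ETS factors, was found in 28.6% of the vascular genes and 14.8% of all genes. CCGGAAG, another ETS motif with the same last 5 bases, was found in 0 and 9.93%. ACGTG, the core of the hypoxia response element, was found in 14.3% and 21.8%. These shares count a gene if any of its windows matched. Counted by window, GGGCGG was in 57.5% of vascular and 35.7% of all windows, and CAGGAAG in 25% and 13.3%. Such matches are letters in a window and say nothing of binding.

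Of the other receptor genes, Ramp2, part of the adrenomedullin receptor, and Nos3, the endothelial nitric oxide synthase, were tested and not called, at log2 fold changes of 0.21 and 0.08. Both are uncertain for their reads. Ramp2 shares 25.4% of its 50-base words near the transcript end with its neighbour Vps25, and Nos3 shares exon bases with Atg9b and Gm15587 on the other strand. The angiopoietin receptor genes Tek and Tie1, the guidance receptor gene Robo4 and the apelin receptor gene Aplnr were not tested. Tek had 41 counts over the 4 control and 32 over the 4 Mfp2-/- libraries, a ratio of 0.81 scaled to library size (95% exact interval 0.50 to 1.32). Tie1 had 44 and 27 counts, a ratio of 0.64 (0.38 to 1.05). The destabilising ligand gene Angpt2 had 39 and 30 counts, a ratio of 0.80 (0.48 to 1.32). The tip cell ligand gene Apln had 18 and 8 counts, a ratio of 0.46 (0.17 to 1.12). Robo4 had 28 and 29 counts (ratio 1.08, 0.62 to 1.88) and Aplnr 8 and 3 (0.39, 0.067 to 1.63). All 6 intervals include 1, and they cover counting error only.

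**Figure D2:**
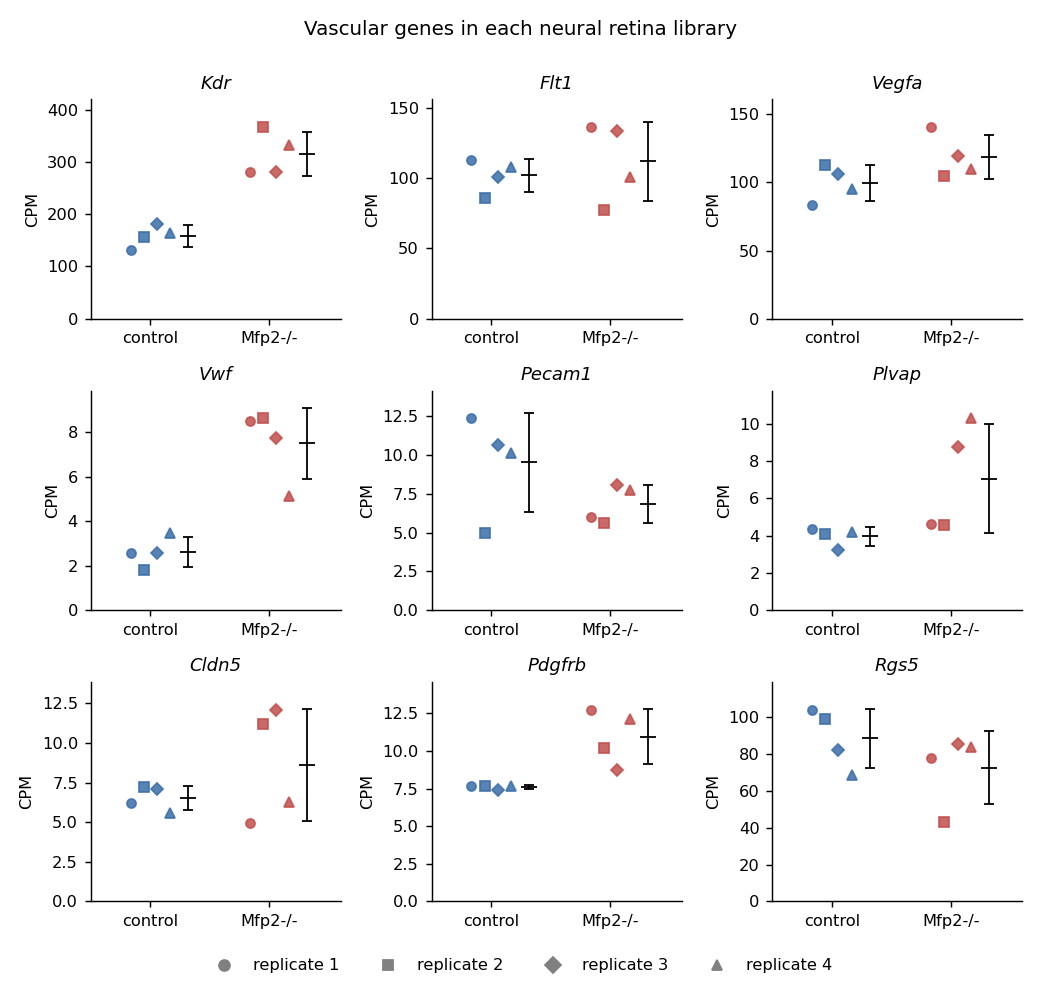
CPM of 9 vascular genes in each control (blue) and Mfp2-/- (red) library, with the symbol giving the replicate and the black bar the mean ± SD of 4 mice. The 4 Mfp2-/- libraries lie above the 4 controls in Kdr, Vwf, Plvap and Pdgfrb, and the groups overlap in Flt1, Vegfa, Pecam1, Cldn5 and Rgs5.

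Vwf encodes von Willebrand factor, the clotting glycoprotein that endothelial cells store in Weibel-Palade bodies. It lies on chromosome 6 (125546774 to 125686679, plus strand) and was at 2.55, 1.81, 2.58 and 3.48 CPM in control replicates 1 to 4. In Mfp2-/- replicates 1 to 4 it was at 8.49, 8.64, 7.73 and 5.15 CPM. All 4 Mfp2-/- retinas lay above the controls. The counts behind these values were 7, 4, 8 and 10 in control and 24, 17, 23 and 14 in Mfp2-/- libraries. The change was 2.8-fold (95% interval 1.74 to 4.51), or 1.49 on the log2 scale (standard error 0.31), with an adjusted p of 0.00554. It was called in all 20 alternative fits in which it was tested, with adjusted p of 0.00324 to 0.0326, the largest being that without Mfp2-/- replicates 2 and 3 (log2 fold change 1.35). Vwf passed the filter on low counts through the Mfp2-/- libraries alone, as 0 of 4 controls reached its limit of 3.54 CPM. Without the filter, its adjusted p was 0.00984. It was not tested when 10 counts were asked of every library.

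The genes that define endothelial cells most widely did not pass the test. Pecam1, the junctional adhesion molecule CD31, was at 12.4, 4.98, 10.6 and 10.1 CPM in control and at 6.02, 5.59, 8.07 and 7.72 CPM in Mfp2-/- replicates 1 to 4. Control replicate 2, the Mfp2+/- mouse, was the lowest of all and made the groups overlap. The log2 fold change was -0.48 (95% interval -1.14 to 0.18, adjusted p = 0.258). Without control replicate 2 it was -0.68 (adjusted p = 0.0885), and Pecam1 was called in 0 of 21 alternative fits. Cdh5, the cadherin of endothelial junctions, was at 5.10, 1.81, 5.48 and 2.09 CPM in control and at 3.89, 5.08, 4.71 and 2.57 CPM in Mfp2-/- replicates 1 to 4. Here too the groups overlapped, with a log2 fold change of 0.12 (95% interval -0.80 to 1.05, adjusted p = 0.854).

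The adhesion gene Esam (log2 fold change 0.28, 95% interval -0.15 to 0.71), the TGF-beta co-receptor gene Eng (0.33, -0.28 to 0.93) and the secreted Egfl7 (-0.20, -0.66 to 0.26) were not called either. Eng and Egfl7 share exon bases with Fpgs and Agpat2 on the other strand, and whether strand was used to count them is not given in the sources used here. Emcn, a sialomucin of veins and capillaries, was not tested, with 29 counts in control and 32 in Mfp2-/- libraries, a ratio of 1.15 (95% exact interval 0.67 to 1.97).

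The endothelial surface genes Ly6c1 and Ly6a and the membrane protein gene Itm2a had log2 fold changes of -0.46, 0.52 and 0.33, none of them called. Ly6c1 was lowest in Mfp2-/- replicates 1 and 2, at 7.08 and 5.08 CPM, against 11.1 to 14.6 CPM in control and 12.8 and 13.2 CPM in Mfp2-/- replicates 3 and 4. Reads of this family can be shared, as 29.2% of the 50-base words of Ly6c1 near the transcript end and 8.13% of those of Ly6a occur in other genes. Among transcription factor genes of the endothelium, Fli1 (0.27) and Lef1 (-0.01) were tested and not called. Sox17 had 42 and 32 counts, Erg 10 and 13, and Sox18, the factor of vessel and lymphatic development, 0 in control and 4 in Mfp2-/- libraries. The interval of each of the 3 ratios includes 1.

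The change of Kdr and Vwf was also set against other endothelial transcripts of the same library, in ratios of raw counts that need no scaling. They were chosen after the values were seen and carry no test. They reuse the Kdr and Vwf counts behind the calls, and Vwf had only 4 to 10 counts in each control library. Kdr per Flt1 was 1.16, 1.81, 1.80 and 1.52 in control and 2.05, 4.72, 2.10 and 3.29 in Mfp2-/- replicates 1 to 4. Every Mfp2-/- library lay above every control. Per count of 5 endothelial genes (Pecam1, Cdh5, Esam, Eng and Egfl7), Kdr was at 2.17 to 2.92 in control and 4.13 to 6.35 in Mfp2-/- libraries. Vwf per count of the same 5 genes was at 0.034 to 0.049 in control and 0.099 to 0.125 in Mfp2-/- libraries. For Flt1 against the same 5 genes the groups overlapped, at 1.51 to 1.86 and 0.96 to 2.10. Kdr transcripts are known in retinal neurons as well as in vessels, and these data do not separate such sources.

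**Figure D3:**
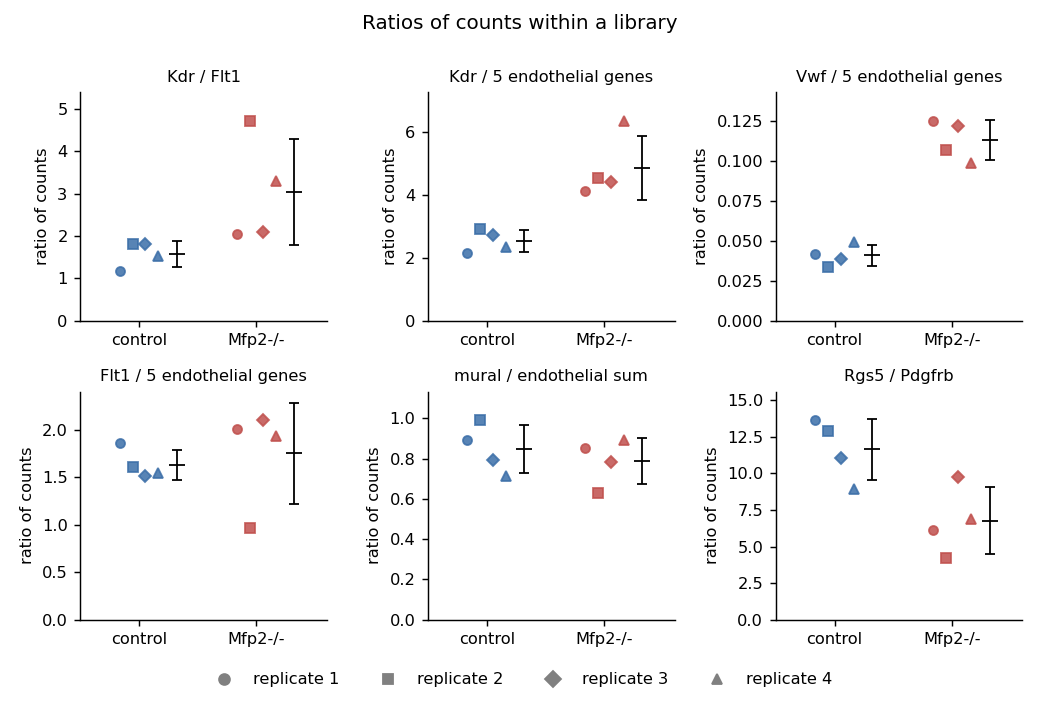
Ratios of counts within each control (blue) and Mfp2-/- (red) library, with the symbol giving the replicate and the black bar the mean ± SD of 4 mice. Kdr per Flt1, and Kdr and Vwf per count of 5 endothelial genes, separate the groups, while the other 3 ratios overlap.

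Of the 7 genes of the blood-retinal barrier, 6 were tested and 0 were called by edgeR, with 3 at an unadjusted p under 0.05 (Plvap, Abcg2 and Abcb1a). DESeq2 and limma-voom also called 0, with 1 and 2 at an unadjusted p under 0.05. In edgeR's test 27.0% of all genes tested were called and 39.9% had an unadjusted p under 0.05. Plvap (chromosome 8, 71497765 to 71511752 of GRCm38, minus strand), the protein of fenestral diaphragms that mature barrier vessels lack, was at 4.37, 4.07, 3.23 and 4.18 CPM in control and at 4.60, 4.57, 8.74 and 10.3 CPM in Mfp2-/- replicates 1 to 4. Mfp2-/- replicates 3 and 4 were well above control, while replicates 1 and 2 lay just above the highest control. The log2 fold change was 0.85 (95% interval 0.10 to 1.6, adjusted p = 0.0889). Without Mfp2-/- replicate 1 it was 1.03 and Plvap was called (adjusted p = 0.0485). This was the only 1 of 20 alternative fits to call Plvap, with log2 fold changes of 0.63 to 1.03 and adjusted p of up to 0.214.

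Cldn5, the main claudin of the barrier, was at 6.19, 7.24, 7.10 and 5.57 CPM in control and at 4.95, 11.2, 12.1 and 6.25 CPM in Mfp2-/- replicates 1 to 4. The higher values were those of Mfp2-/- replicates 2 and 3, and the log2 fold change of 0.39 (95% interval -0.32 to 1.10, adjusted p = 0.391) became -0.22 without them. Tjp1, the scaffold protein ZO-1, had a mean of 45.7 ± 1.46 CPM among controls and of 46.5 ± 12.01 CPM among Mfp2-/- mice (SD, n = 4 each), with a log2 fold change of 0.03 (95% interval -0.36 to 0.41). Occludin (Ocln) was not tested, with 16 and 24 counts.

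The efflux transporters of the barrier went in different directions without passing the test. Abcb1a, the P-glycoprotein gene, was at 20.4, 17.6, 18.7 and 19.5 CPM in control and at 13.8, 13.2, 11.8 and 18.4 CPM in Mfp2-/- replicates 1 to 4. Mfp2-/- replicate 4 lay inside the control range, and the log2 fold change was -0.41 (95% interval -0.83 to -0.0043, adjusted p = 0.122). Of its 50-base words near the transcript end, 18.5% occur in the near-identical Abcb1b, which had 33 counts in all against 359 of Abcb1a. Abcg2, the breast cancer resistance protein gene, ranged from 14.02 to 22.6 CPM among controls and from 19.3 to 27.6 CPM among Mfp2-/- retinas (log2 fold change 0.45, 95% interval 0.0051 to 0.89). The organic anion transporter gene Slco1a4 was at 18.7 to 26.2 and 13.2 to 23.2 CPM (-0.31, -0.77 to 0.14).

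Of the 10 mural genes, 6 were tested and 0 were called by edgeR, with 1 at an unadjusted p under 0.05 (Pdgfrb). DESeq2 and limma-voom called 0 as well, with 0 and 1 at an unadjusted p under 0.05. The shares of all genes tested in edgeR were 27.0% called and 39.9% at an unadjusted p under 0.05. Pdgfrb, the receptor by which pericytes are recruited, was at 7.64, 7.69, 7.42 and 7.66 CPM in control and at 12.7, 10.2, 8.74 and 12.1 CPM in Mfp2-/- replicates 1 to 4. All Mfp2-/- retinas lay above the controls, which differed little from each other. The log2 fold change was 0.53 (95% interval 0.05 to 1.00, adjusted p = 0.0969). It was called with upper-quartile factors (0.64, adjusted p = 0.0461) and with total counts alone (0.65, adjusted p = 0.0449), both of which also shift all genes upward, and without Mfp2-/- replicates 2 and 3 it was 0.70 (adjusted p = 0.0727).

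Rgs5, a regulator of G-protein signalling and the most abundant mural gene here, was at 104, 99.1, 81.9 and 68.6 CPM in control and at 77.8, 43.2, 85.4 and 83.8 CPM in Mfp2-/- replicates 1 to 4. The groups overlapped, with Mfp2-/- replicate 2 the lowest library, and the log2 fold change was -0.28 (95% interval -0.76 to 0.20, adjusted p = 0.369). Cspg4, the proteoglycan NG2, had 9, 9, 11 and 4 counts in control and 10, 8, 5 and 1 in Mfp2-/- replicates 1 to 4, too few for the test. The summed ratio was 0.76 (95% exact interval 0.43 to 1.32). The potassium channel subunit gene Abcc9 (0.50), the contractile genes Acta2 (0.53) and Myl9 (0.17) and the adhesion molecule gene Mcam (0.41) were tested and not called. The 0.53 of Acta2 became -0.29 without Mfp2-/- replicates 2 and 3, with replicate 2 at 23.4 CPM and every other library at or under 11.1 CPM. The aminopeptidase gene Anpep, with 4 and 6 counts, and the Notch receptor gene Notch3 of smooth muscle, with 21 and 22 counts, were not tested. Mcam reached the filter limit in all Mfp2-/- libraries and in 1 control.

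Tagln, a contractile gene of smooth muscle, had 2, 2, 0 and 4 counts in control and 12, 6, 4 and 5 in Mfp2-/- replicates 1 to 4. Its ratio of 3.51 (95% exact interval 1.55 to 8.94) is the only one of the 15 untested genes whose interval leaves out 1. When all genes with a count were tested, Tagln did not pass (adjusted p = 0.114). It shares exon bases with Pcsk7 on the other strand, which had 212 counts. Without the filter, 0 of the 15 genes were called by edgeR and 1 had an unadjusted p under 0.05. In 0 of the 15 did the groups separate.

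The endothelial, barrier and mural genes were also summed. Kdr, Flt1 and Vegfa were the most abundant of the 26 endothelial genes, and the other 23 summed to 145 to 156 CPM in control and 142 to 182 CPM in Mfp2-/- retinas. The 7 barrier genes summed to 109 to 120 and 100.1 to 135 CPM, and the 10 mural genes to 104 to 144 and 114 to 128 CPM. The groups overlapped in these 3 sums. With Kdr, Flt1 and Vegfa, the sum of the 26 endothelial genes was 485 to 537 CPM in control and 684 to 731 CPM in Mfp2-/- retinas, without overlap. The mean of this sum rose from 509 to 704 CPM, within which Kdr alone rose from 158 to 315 CPM. Mural counts per endothelial count, without the 3 abundant genes, were 0.71 to 0.99 in control and 0.63 to 0.89 in Mfp2-/- libraries. Rgs5 per count of Pdgfrb was 8.96 to 13.6 in control and 4.25 to 9.77 in Mfp2-/- libraries, with an overlap through Mfp2-/- replicate 3.

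Markers of other cells of the tissue moved with the genotype. For comparison, 13.8% of all genes tested were upregulated and 13.2% downregulated. All 18 rod genes were downregulated, and their sum fell from 58042 to 68930 CPM among controls to 2310 to 3321 CPM among Mfp2-/- retinas. The study counted a normal number of photoreceptor nuclei in Mfp2-/- retinas at this age, and found less rhodopsin protein. This sum is therefore a level of transcripts and not a count of rods. Of 10 cone genes, 6 were downregulated and 2 upregulated. Of 14 microglia and macrophage genes, 11 were tested and upregulated, 4 of which (Aif1, Trem2, Lyz2 and Cd68) passed the filter through the Mfp2-/- libraries alone. Without the filter 12 of the 14 were upregulated. The 14 genes had a sum of 62.6 to 86.7 CPM among controls and of 317 to 437 CPM among Mfp2-/- retinas. Of 10 Müller glia genes 6 were upregulated and 0 downregulated (0 also in DESeq2 and limma-voom, with 1 lower at an unadjusted p under 0.05 in each of the 3 tools), while their sum, led by Glul, overlapped between the groups at 3084 to 3847 and 3036 to 4520 CPM. In the astrocyte list 3 of 4 tested genes (Gfap, Aldh1l1 and Pdgfra) were upregulated, and S100b was not called. The list had a sum of 54.3 to 74.8 CPM in control and 171 to 256 CPM in Mfp2-/- retinas. Within it Gfap alone was at 5.88 to 17.4 CPM in control and 101 to 159 CPM in Mfp2-/- retinas. The study found GFAP in reactive Müller cells of Mfp2-/- retinas at this age, so the sum is not one of astrocytes alone. None of these markers was at 0 in a whole group. The part of these cells in the levels of Kdr, Vwf and the other vascular genes was not tested.

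Blood left in the vessels and neighbouring tissue were read from 3 more lists. Beside them, edgeR called 27.0% of all genes tested, and 39.9% had an unadjusted p under 0.05. All 4 tested haemoglobin genes were lower in Mfp2-/- retinas, and edgeR called 0 of them, with 4 at an unadjusted p under 0.05. DESeq2 and limma-voom also called 0, with 4 and 0 at an unadjusted p under 0.05. The calls depended on the libraries kept, the filter and the model, and some of these fits also tested Alas2 of the same list. Without control replicate 4, edgeR called 5 of 5 lower. It called 3 lower without Mfp2-/- replicate 2, 4 without Mfp2-/- replicates 2 and 3, 3 without the filter and 2 with the replicate block. The red blood cell genes summed to 218 to 780 CPM in control, where replicate 4 was the lowest, and to 243 to 447 CPM in Mfp2-/- retinas. Of 7 tested genes of the retinal pigment epithelium and choroid melanocytes, edgeR called 0, with 3 at an unadjusted p under 0.05, whereas DESeq2 called 1 lower and limma-voom 1 higher. The sum was 197 to 404 and 300.2 to 527 CPM. Of 5 tested fibroblast genes, Col1a2 and Pdgfra, which is also in the astrocyte list, were upregulated. Col1a1 (log2 fold change 0.51), Col3a1 (-0.74) and Dcn (-0.33) were not called. The fibroblast sum was 47.4 to 82.2 CPM in control and 83.9 to 152 CPM in Mfp2-/- retinas. The part of these 3 lists in the vascular values was not tested.

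**Figure D4:**
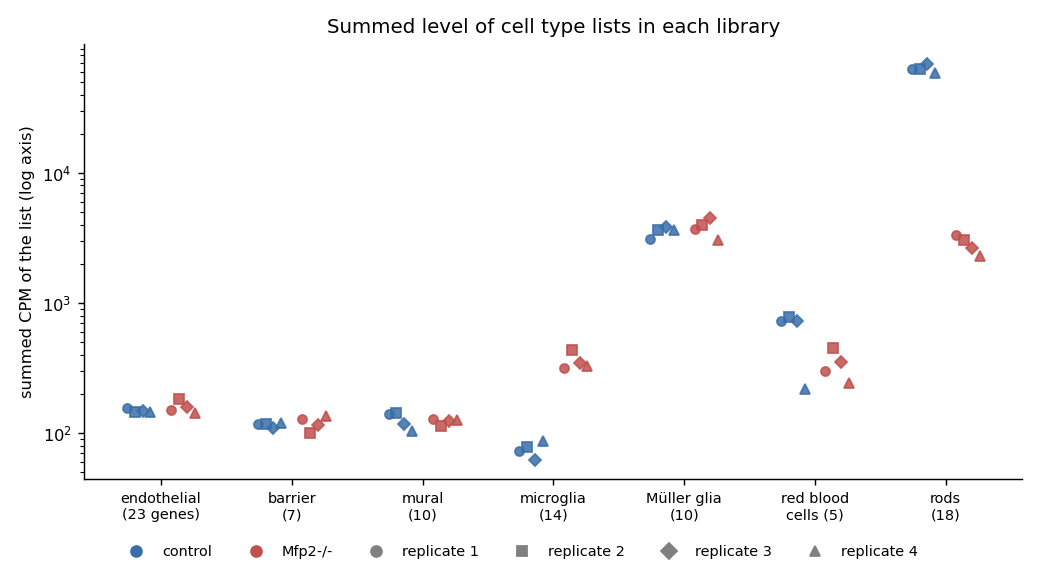
Summed CPM (log axis) of the endothelial genes without Kdr, Flt1 and Vegfa, of the barrier and mural genes, and of markers of 4 other cell types, in each control (blue) and Mfp2-/- (red) library, with the symbol giving the replicate. The 3 vascular sums overlap between the groups, while the microglia sum is higher and the rod sum lower in all Mfp2-/- libraries.

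The single Mfp2+/- library (control replicate 2) lay within the range of the 3 Mfp2+/+ libraries in 24 of the 43 vascular genes and in 14 of the 28 tested. It was at 156 CPM for Kdr, where the Mfp2+/+ libraries were at 132 to 182 CPM. For Vwf it was the lowest control, at 1.81 CPM against 2.55 to 3.48 CPM. Without this library Kdr and Vwf were still called, at log2 fold changes of 0.98 (adjusted p = 0.00496) and 1.36 (adjusted p = 0.0217).

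Genes of the pathways that act on vessels were then taken from 7 lists of 141 genes in all, none of them among the 43. Of the 90 genes tested, 22 were upregulated and 14 downregulated, beside the 27.0% called among all genes. Many of these genes are also used by glia, neurons or immune cells of the retina, and their source was not tested. Without Mfp2-/- replicates 2 and 3, 33 of the 36 called genes were still called, the exceptions being Col4a1, Col4a2 and P4ha2.

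Among 25 angiogenic ligand and receptor genes, 16 were tested, 6 upregulated and 1 downregulated (median log2 fold change 0.51). This is 43.8%, beside 27.0% of all genes. The Notch ligand gene Jag1 fell from 122 ± 14.7 CPM in control to 23.7 ± 3.79 CPM in Mfp2-/- retinas (log2 fold change -2.36, adjusted p = 1.63e-06). The ephrin gene Efnb2, a mark of arteries, rose from 17.2 ± 3.54 to 43.7 ± 9.28 CPM (1.33, adjusted p = 0.001). Pdgfra, a receptor gene of astrocytes and fibroblasts, rose from 6.87 ± 0.35 to 20.1 ± 4.88 CPM (1.54), and its ligand gene Pdgfa from 21.4 ± 3.24 to 36.4 ± 3.27 CPM (0.76), with reads that may be shared with 6330403L08Rik on the other strand. SD is over 4 mice in each group.

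In the Norrin and Wnt list, which serves the barrier, 11 of 17 genes were tested, 3 were upregulated (27.3%, beside 27.0% of all genes) and 0 downregulated (median 0.57). With upper-quartile factors or total counts alone 5 were upregulated. DESeq2 and limma-voom each called 4 higher and 0 lower, and no tested gene was lower at an unadjusted p under 0.05 in any of the 3 tools. The 3 genes, Mfsd2a, Cav1 and Cavin1 (listed as Ptrf), encode no ligand, receptor or transducer of the pathway and are known from the vesicle traffic of endothelial cells. Of the 8 other tested genes of the list edgeR called 0, with 2 at an unadjusted p under 0.05 (Tspan12 and Ctnnb1). DESeq2 and limma-voom each called Tspan12, a co-receptor gene of Norrin, also with 2 at an unadjusted p under 0.05. Mfsd2a, the lipid transporter that restrains transcytosis, was at 4.00, 7.24, 3.87 and 4.18 CPM in control and at 14.2, 19.8, 18.5 and 15.8 CPM in Mfp2-/- replicates 1 to 4. Each Mfp2-/- retina was above each control, and the difference was 1.84 on the log2 scale (standard error 0.26), with an adjusted p of 0.000495. The study measured Mfsd2a by RT-qPCR in the retinal pigment epithelium, another tissue than the neural retina sequenced here, and reported it unchanged there. The caveola genes Cav1 and Ptrf rose by 0.94 and 1.02 on the log2 scale, and Ptrf was not called without control replicate 1 or without control replicate 2.

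Of the 14 tested junction and transporter genes, 4 were upregulated and 4 downregulated (57.1%, beside 27.0% of all genes). The amino acid transporter genes Slc7a5 and Slc3a2, whose products form 1 heterodimer, rose by 1.64 and 1.58 on the log2 scale. The junctional adhesion molecule gene F11r rose by 1.74. The lactate transporter gene Slc16a1 fell from 221 ± 41.8 to 75.6 ± 19.2 CPM (SD, n = 4 each), a log2 fold change of -1.55. All 4 were called in all 21 alternative fits.

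Of 28 further endothelial genes 19 were tested, with 2 upregulated and 1 downregulated (15.8%, beside 27.0% of all genes, median 0.07). Podxl, a sialomucin, fell by 2.14 on the log2 scale, while the tetraspanin gene Cd9 and the proteoglycan gene Srgn rose by 1.62 and 2.11. Srgn passed the filter through the Mfp2-/- libraries alone, as 0 of 4 controls reached its limit. Of 23 further mural genes 9 were tested, with 3 upregulated and 2 downregulated (55.6%, beside 27.0% of all genes, median 0.32). Vtn, which encodes vitronectin and is also known from photoreceptors, fell from 530 ± 84.4 to 43.02 ± 7.75 CPM (-3.63), and the myosin kinase gene Mylk fell by 1.64 on the log2 scale. Zic1 rose by 1.02 with groups that overlapped, and was not called without control replicate 1, 2 or 3 or without Mfp2-/- replicate 3. It shares exon bases with Zic4 on the other strand.

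Col4a1, a collagen of the vessel basement membrane, was at 36.0, 40.3, 38.4 and 34.1 CPM in control and at 48.1, 184, 132 and 44.9 CPM in Mfp2-/- replicates 1 to 4. Replicates 2 and 3, the libraries that stood apart, were far above the other 2. The log2 fold change of 1.45 (adjusted p = 0.0237) became 0.32 without them and was then not called. Col4a1 was also not called by limma-voom or limma-trend, without Mfp2-/- replicate 3, or without any 1 of the 4 controls.

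The list of genes induced in activated endothelium had 4 of 12 genes tested and 3 upregulated (75.0%, beside 27.0% of all genes). They were Lcn2 (log2 fold change 6.05), Cd44 (3.04) and the leukocyte adhesion gene Vcam1 (1.84), of which Lcn2 and Cd44 are also known from reactive glia. None was downregulated in edgeR, DESeq2 or limma-voom, and none was lower at an unadjusted p under 0.05. DESeq2 and limma-voom called all 4 tested genes higher. The gene that edgeR did not call, Ackr1, is uncertain for its reads. It had 2596 counts in all and shares 284 exon bases with Cadm3 on the same strand, which had 4142. A further list held 20 genes driven by the hypoxia-inducible factors (HIF), or encoding them and their regulators. Of these 17 were tested, 1 was upregulated and 6 were downregulated (41.2%, beside 27.0% of all genes, median -0.37). The glycolysis genes Hk2 and Ldha fell by 1.91 and 1.09 on the log2 scale, the stress gene Ndrg1 by 1.01 and Epas1, which encodes HIF-2 alpha, by 0.81. These 4 were called in all 21 alternative fits. Of the others, the single upregulated gene, P4ha2, was called in 12 of the 21 and was lost in 6 of the 8 fits that left out 1 library, and Aldoa among those downregulated was called in 6 of the 21.

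**Figure D5:**
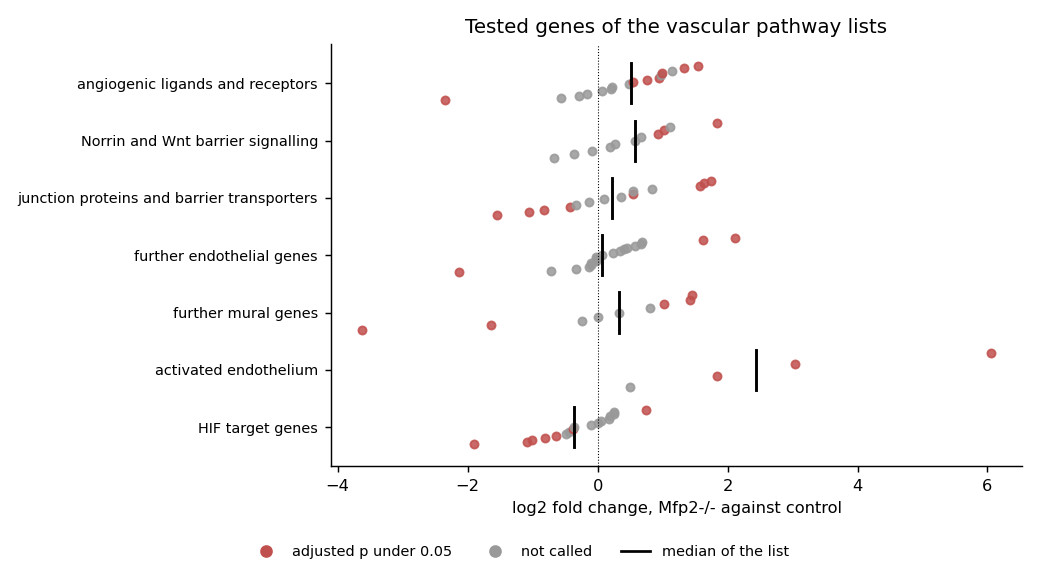
Log2 fold change (Mfp2-/- against control) of each tested gene of 7 vascular pathway lists, with called genes in red, others in grey and the median of a list as a black line. Called genes of both signs occur in 5 of the lists, and those of the Norrin and Wnt list and of the activated endothelium list lie above 0.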

How the data were processed

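The deposited values are raw counts of reads per gene symbol, which the authors made from single-end QuantSeq 3′ reads. The submitters' processing notes name FastQC 0.11.7, HISAT2, SAMtools 1.5, HTSeq 2.7.14 and the genome mm10. Neither the annotation release nor whether strand was used is given in the sources used here. A table of the whole series held the same counts for the 21129 symbols that it shared with the tables of single libraries. Another 14 of its symbols were not in those, and it was not used.

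Groups came from the labels, and the Mfp2+/- mouse was kept as a control as in the study. Tests were run in R 4.3.3 by edgeR 4.0.16 (filterByExpr, which asked for 3.54 CPM in at least 4 libraries, TMM factors and the quasi-likelihood test), with adjusted p-values over 12516 genes. The study used limma, which is among the alternatives here together with DESeq2 1.42.0 and limma 3.58.1 (voom and trend), other scalings and library sizes, other filters, a robust fit, a replicate block and left-out libraries. Depth was 1895485 to 3226187 counts per library. Intervals of count ratios are exact binomial at 95% and cover counting error only.

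The members and lists were chosen with earlier results of these data known. Values in all libraries are given for called members and for Pecam1, Cdh5, Cldn5, Kdr, Vegfa, Plvap, Pdgfrb, Rgs5 and Cspg4, and up to 4 called genes with the smallest adjusted p are named per pathway list. Flt1, Abcb1a, Mfsd2a, Col4a1 and Tagln were given in full, and Tspan12, Ctnnb1, Col4a2, P4ha2 and Aldoa named, after their values were seen. Shared reads were checked from words of 50 bases in the last 500 bases of transcripts and from shared exon bases (GRCm38 annotation). The fit was tested on simulated data. Rows that name no gene were left out of library sizes and tests, and 33.1% to 40.8% of the tabulated reads of a library lay in genes. Protein sequences were not used here.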

Additional observations from a re-analysis of the deposited data

Results flagged for a closer look

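In groups of 4 libraries, 3 of 56 groups of tested vascular genes held 1 library far from the other 3 (Dixon's test at the 95% level), where chance flags about 1 in 20 groups, or 2.8 of 56. Eng was at 5.23 CPM in control replicate 4 and at 4.00 to 4.19 CPM in the other controls. Nos3 was at 5.10 CPM in control replicate 1 and at 8.36 to 9.03 CPM in the other controls. In Mfp2-/- libraries Nos3 was at 5.66 CPM in replicate 1 and at 8.82 to 9.41 CPM in the other 3.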

How the results depend on the processing

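Kdr was called in 21 of 21 and Vwf in 20 of 20 alternatives. With 10 counts asked of every library 1 vascular gene was upregulated and 1 endothelial gene called, since Vwf was not tested there. The mural genes called went from 0 to 1 (Pdgfrb) with total counts alone and also with upper-quartile factors. Leaving out 1 library at a time gave 0 to 1 barrier genes called, the 1 being Plvap without Mfp2-/- replicate 1. Without Mfp2-/- replicates 2 and 3, the log2 fold changes of Ramp2, Cldn5 and Acta2, none of them called, became -0.23, -0.22 and -0.29. The causes of these moves were not tested. The replicate number was taken as a block in 1 alternative, where 2 vascular genes remained upregulated (Kdr 0.99, Vwf 1.48) and 0 were downregulated, and 1355 genes were upregulated and 1490 downregulated over all genes. The labels give the samples only a number. The correlation of deviations between samples of the same number was 0.08, -0.16, 0.25 and 0.21, and between samples of different numbers -0.44 to 0.48. Such correlations cannot tell whether samples of the same number share anything else. Pathway genes called numbered 29 to 42 over the alternatives against 36. Of the further mural genes 1 was upregulated with limma-voom against 3. Low counts limit the 15 untested genes.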
